A study of Drosophila melanogaster with 2 samples.

Results

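The respiratory chain and ATP synthase genes analysed here were the 88 protein-coding genes on the chromosome arms whose symbols begin with ND-, Sdh, UQCR-, COX or ATPsyn, out of 13945 protein-coding genes in the BDGP6 annotation. Membership followed from the symbols, while the group itself was taken up with earlier results of these data known, among them the strong peak at COX7AL2. By these prefixes, 40 genes were counted for complex I, 8 for complex II, 9 for complex III, 16 for complex IV and 15 for ATP synthase, here complex V. The count followed the symbol alone, so that Sdhaf3 was counted with complex II without a check that it encodes a subunit. Genes on the mitochondrial chromosome carry other symbols and were not among them.

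Whole Drosophila melanogaster embryos of both sexes, collected at 0 to 24 hours, were used for chromatin immunoprecipitation sequencing of the nuclear receptor Ftz-F1. The strain, labelled ftz-f1-GFP, is a transgenic line that stably makes Ftz-F1 with green fluorescent protein at its C-terminus, and an antibody against that protein was used for both libraries. The labels do not state which promoter drives the fusion or whether the normal protein was also present, and a whole embryo averages all its tissues and stages. There was 1 group with biological replicates 1 and 4 and no other condition, so no difference between groups could be tested, and each value is a description set beside all genes or all peaks. The labels give each replicate its own biosample and name a possible control experiment without describing it. For each replicate, and for both pooled, the authors deposited 30000 regions ranked as peaks and background, so the weak entries may be background. On the chromosome arms used here this left 30000 for replicate 1 and 29999 each for replicate 4 and the pooled list, since 1 entry of each lay on the Y. They also deposited 3960 peaks in genome build dm6 as the thresholded list of an irreproducible discovery rate (IDR) analysis, here the IDR peaks. These were the strongest 3960 peaks of the pooled list, so a single IDR peak can rank low in a replicate. Signal value means the authors' own height of a peak, whose scale is not given in the sources used here, and the read depth behind it is unknown. A gene held a peak when a summit fell between 2000 bp before the gene and the gene's end.

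Complexes I to IV pass electrons from NADH and succinate to oxygen in the inner mitochondrial membrane, and complexes I, III and IV pump protons as they do so. ATP synthase lets the protons flow back and makes ATP. Most subunits are encoded in the nucleus, where their genes are scattered over the chromosomes, and in flies several have duplicate copies, many of which are known for expression in the testis. Ftz-F1 binds DNA as a monomer at extended sites that end in the nuclear receptor core.

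Respiratory chain genes as a whole held IDR peaks at shares near those of all genes, above or below them by how summits were assigned. Of the 88 genes, 25 held an IDR peak (28.4%), beside 26.1% of all protein-coding genes. With the summit required to lie within 500 bp of a transcript start, 20 members (22.7%) had one, beside 18.4% of all genes. The members were short, with a median length of 1097 bp against 2166 bp for all protein-coding genes. Among genes of 550 to 5253 bp, from percentile 5 to percentile 95 of the members' lengths, 23 of 78 members (29.5%) and 21.5% of all genes held a peak. The direction turned when upstream sequence was left out, with 9 members (10.2%, beside 12.9% of all genes) holding a summit in the gene body. It also turned when each summit went to the nearest start alone, with 12 members (13.6%, beside 19.3%).

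The share varied between the complexes. Complex V had the highest share, 7 of 15 genes (46.7%), followed by complex IV with 6 of 16 (37.5%). Complex I had 9 of 40 (22.5%), complex III 2 of 9 (22.2%) and complex II 1 of 8 (12.5%). This order depended on the peaks and the assignment used. With the strongest 1980 IDR peaks (15.2% of all genes, 15.9% of members), complex IV held 5 of 16 (31.2%) and complex V 3 of 15 (20%). By gene body alone complex III led with 2 of 9 (22.2%). In the pooled list complex I led with 35 of 40 (87.5%) and complex IV was lowest with 11 of 16 (68.8%). Without genes named as copies of another subunit gene, the pooled share was 100% in complexes II, IV and V. It was then 97.1% in complex I and 83.3% in complex III. The IDR shares of complexes I to V without these copies were 26.5%, 20%, 33.3%, 50% and 63.6%. Each complex has few genes, and no test of the differences between complexes was made.

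With as many peaks as the IDR list, complexes V and IV also had the highest shares in each replicate list on its own. Of the strongest 3960 peaks of replicate 1, summits fell in 25 members (28.4%, beside 26.7% of all genes), and of those of replicate 4 also in 25 (28.4%, beside 25.3%). In both lists 19 of the 88 genes (21.6%) had a summit, beside 20% of all genes. Complex V had 6 genes in replicate 1 and 7 in replicate 4, and complex IV had 6 and 7. Complex I had 10 in replicate 1 and 7 in replicate 4, 25% and 17.5% of its genes, and complex II had 1 and 2.

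**Figure D1:**
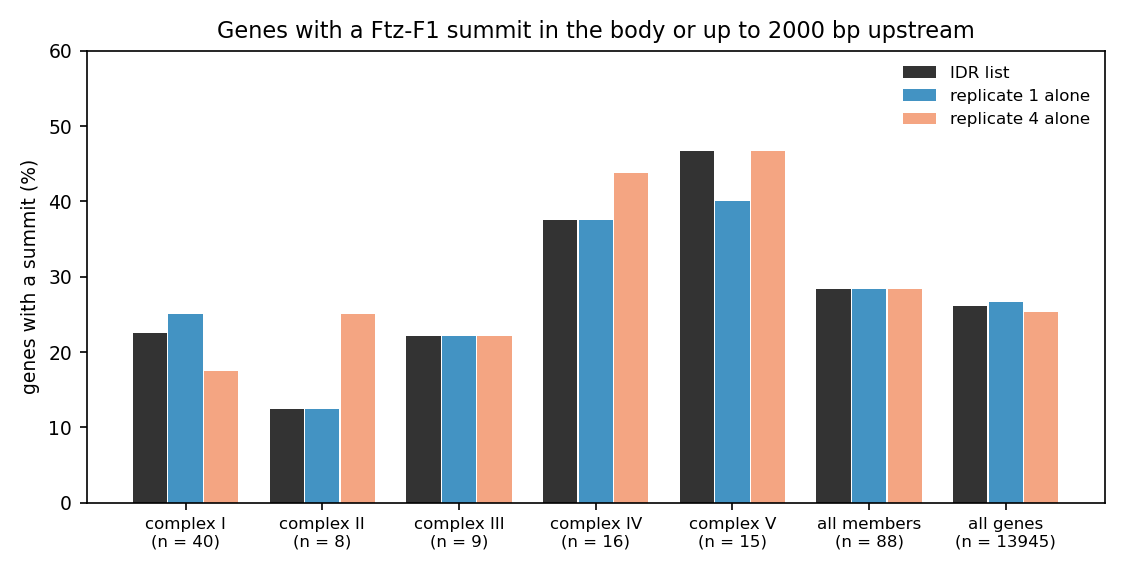
Share of genes in each complex, of all 88 members and of all 13945 protein-coding genes with a Ftz-F1 summit between 2000 bp before the gene and its end, in percent. Dark bars use the IDR list, blue and orange bars the strongest 3960 peaks of replicate 1 and of replicate 4, and complex V (46.7%, 40% and 46.7%) and complex IV (37.5%, 37.5% and 43.8%) stood highest in all of these lists.

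Where members held a peak, most were of ordinary height. The strongest IDR summit of the 25 members had a median signal value of 138, beside 142 for the 3634 protein-coding genes with a peak, and 14 of the 25 lay above the median of all IDR peaks, 131. The values ran from 96.0 at ND-24 to 3557 at COX7AL2, and the next below COX7AL2 was ATPsynE at 432. Further down, the pooled list gave a summit to 71 members (80.7%, beside 69.1% of all genes). The lowest IDR peak of the whole list had a signal value of 91.8. Just inside that limit lay ND-24 (96.0, pooled rank 3649) and ND-MWFE (97.4, rank 3557), and just outside it UQCR-11L (90.9, rank 4029) and ND-SGDH (87.6, rank 4282).

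**Figure D2:**
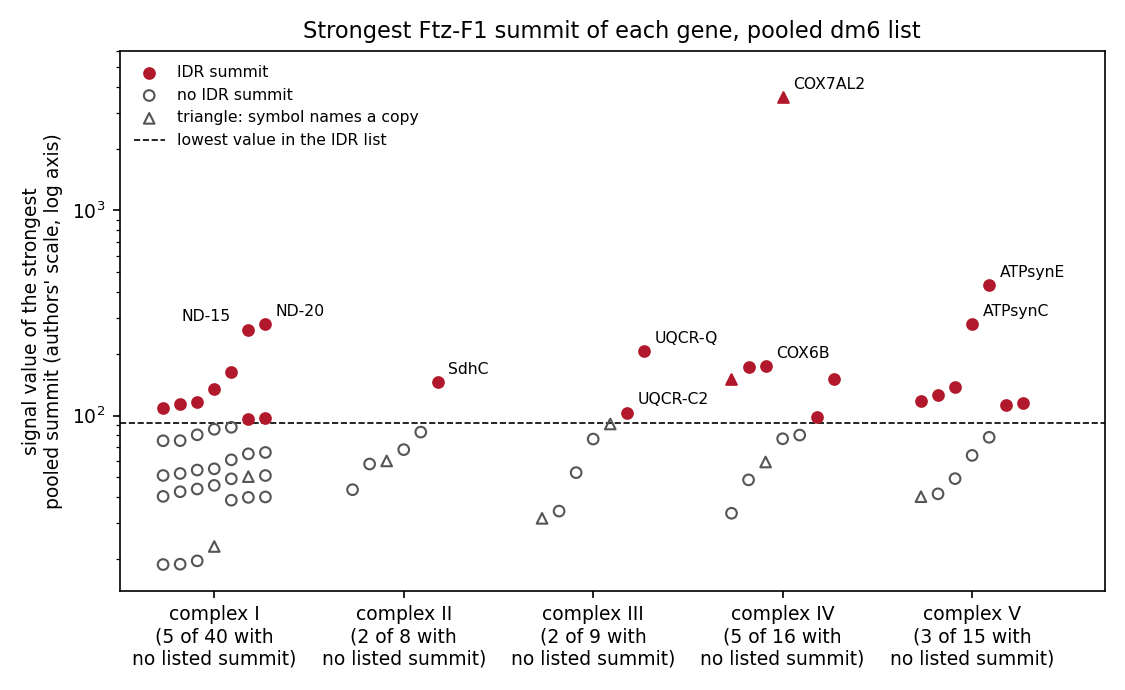
Signal value of the strongest pooled summit of each gene (log axis, authors' scale) by complex. Red marks genes with an IDR summit, open marks genes without one, triangles genes whose symbols name a copy of another gene, and the dashed line the lowest IDR value, 91.8. COX7AL2 stands alone at 3557.

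COX7AL2 (FBgn0085201, chromosome 2L, 2192525 to 2197912, minus strand), named as a copy of the gene for subunit 7A of cytochrome c oxidase, held 5 IDR summits. Its strongest summit, at 2197111, had a signal value of 1458 in replicate 1 and 2119 in replicate 4. It was the highest in each list, 1.26 times the second in replicate 1 and 1.66 times in replicate 4, and with the replicates pooled (3557) 1.47 times the second and 27.1 times the median IDR peak. The next summit, at 2198885, lay 973 bp upstream of the gene and had 511 and 668 in the replicates (ranks 16 and 11). Another, at 2193636, had 161 and 233 (ranks 265 and 124). The remaining 2, at 2199096 and 2194538, were lower, with pooled signal values of 120 and 97.5. That at 2199096 had 61.5 and 117 in the replicates (ranks 2433 and 668) and shared its peak region with the summit at 2198885. The summit at 2194538 had 58.1 and 43.6 (ranks 2742 and 4769). Both replicates thus gave the same order for the 3 strongest summits. Of the 3634 genes with a peak, 82 (2.26%) held at least 5 summits.

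The position of the strongest summit in the gene rests on a single transcript model. COX7AL2 has 4 annotated transcripts. In 3 of them the first exon lies at the far end, beside the coding sequence (2192575 to 2192822, 186 coding bases), and none of these starts beyond 2193010. The fourth begins at 2197912 with an exon that ends at 2197309 and holds no coding sequence, and the summit lies 198 bp past that exon, in the intron. With only the coding span and 2000 bp before it counted, the strongest summit of COX7AL2 was that at 2193636, pooled rank 175, with a signal value of 389. By that rule 23 of the 88 members (26.1%) and 22.1% of all genes held a peak. Between the neighbouring protein-coding genes CG10874 and CG31668, which lie 11334 bp apart, there were 9 IDR summits and 11 pooled summits in all. The 4 beyond the 2000 bp limit reached signal values of 341, 223, 175 and 147. In the other genes of the COX7 family the strongest pooled summit ranked 1106 at COX7B, 4946 at COX7C, 7862 at COX7CL and 16099 at COX7A, and COX7AL had none in the pooled list.

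The sequence under the COX7AL2 summits held no Ftz-F1 site of the form CAAGGTCA, CAAGGTCG, CAAGGCCA or CAAGGCCG, on either strand, within 100 bp of any of the 5 summits or anywhere in the peaks. The 201 bp around the strongest summits are shown because this is the highest peak of the series and its letters can be compared with the sites named above. They come from the RefSeq release 6 assembly (dm6), plus strand, with the summit at the centre, and capitals mark letters that belong to an 8-letter stretch with at most 1 mismatch to such a site on either strand.
COX7AL2, chr2L:2197011-2197211: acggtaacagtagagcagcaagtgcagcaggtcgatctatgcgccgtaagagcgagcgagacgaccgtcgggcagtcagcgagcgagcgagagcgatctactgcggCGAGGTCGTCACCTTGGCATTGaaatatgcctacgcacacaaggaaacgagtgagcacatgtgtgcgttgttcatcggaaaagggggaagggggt
COX7AL2, chr2L:2198785-2198985: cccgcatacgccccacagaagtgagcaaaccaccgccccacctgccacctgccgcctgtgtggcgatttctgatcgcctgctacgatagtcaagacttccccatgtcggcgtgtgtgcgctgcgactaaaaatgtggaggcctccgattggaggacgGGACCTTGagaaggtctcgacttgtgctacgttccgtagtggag
Such near matches are common, since 51.4% of all 3960 IDR summits had one within 100 bp. The window at 2197111 was 57.2% G and C, above 92.2% of IDR summit windows (median 46.8%). Neither window held any of the other motifs searched, which are given with their letters further on.

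**Figure D3:**
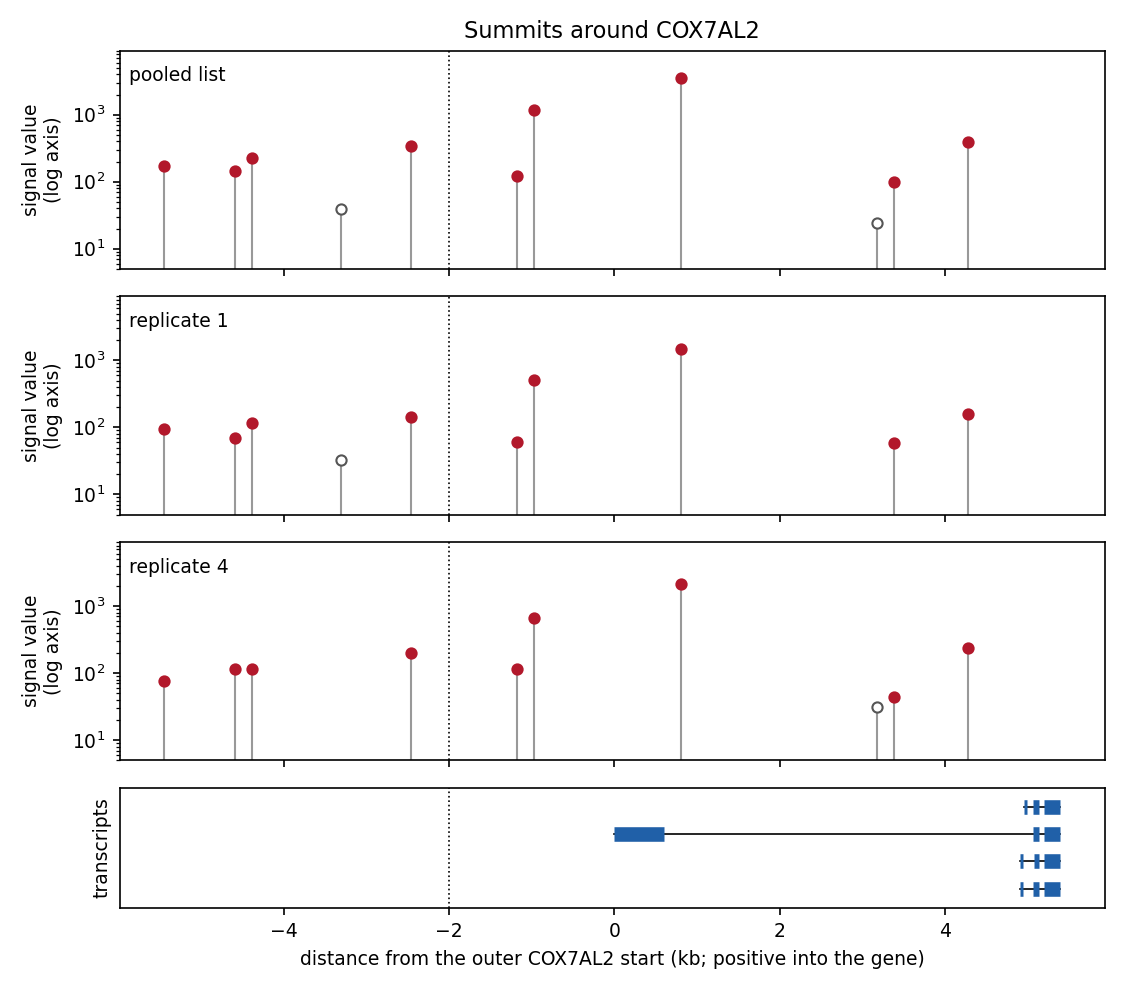
Signal value (log axis) of summits between the genes that flank COX7AL2, by distance from its outer start in kb, for the pooled list and both replicates, with the 4 transcript models below (boxes are exons). Filled points are IDR summits and the dotted line is 2000 bp upstream. The summit 801 bp inside the outer start is the highest in each panel, and 2 neighbouring points far upstream in replicate 4 stand for the same replicate peak.

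Among the 15 ATP synthase genes with the prefix, 7 held an IDR peak (46.7%, beside 26.1% of all genes). All 7 encode parts of the membrane sector or the peripheral stalk. ATPsynE, for the small membrane subunit e (chromosome 3R, 14326947 to 14327735), had the strongest, with a summit 505 bp upstream and signal values of 247 in replicate 1 and 185 in replicate 4 (ranks 86 and 220, pooled rank 130). A lower summit lay 303 bp upstream (86.1 and 58.5), and both were nearer to a start of Afti. ATPsynC, for the ring that turns with the proton flow (3R, 31216145 to 31219630), had its summit 89 bp upstream with 138 and 141 (ranks 384 and 435, pooled rank 377). Both genes ranked high in each replicate. ATPsynD, for the stalk subunit d, had 79.8 and 69.3 (ranks 1377 and 2095, pooled rank 1773) at a summit 46 bp upstream, and a further IDR summit 702 bp upstream that lay 28 bp from a start of cdi. The others were the small membrane subunit gene ATPsynF (pooled signal value 126, with CG3548 nearer), ATPsynO for the stalk protein that joins the head (117), ATPsynB for stalk subunit b (115) and ATPsynG (113). ATPsynG had the only summit in a coding exon. Of 8 genes for the membrane part and peripheral stalk, 7 held a peak and ATPsynCF6 did not (best pooled rank 10121, although rank 3554 in replicate 4). This share was 87.5%, beside 35.9% of all members not named as copies and 26.1% of all genes. None of ATPsynbeta, ATPsyngamma and ATPsyndelta, which encode the catalytic head and central stalk, held one, with best pooled ranks of 12545, 5193 and 6998. This grouping was chosen after the values were seen, and blw, which encodes the head subunit alpha and lacks the prefix, did hold a peak (signal value 189), so the head and stalk genes came to 1 of 5 with blw and sun counted. ATPsynbeta is on chromosome 4, where 11.2% of all genes held a peak.

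In cytochrome c oxidase, complex IV, 4 of the 8 genes not named as copies held a peak (50%). The share was 35.9% for all members not named as copies and 26.1% for all genes. All 4 summits lay within 500 bp of a start of the gene. The 4 genes encode small nuclear-encoded subunits that surround the catalytic core. COX6B on the X had 83.6 in replicate 1 and 96.0 in replicate 4 (ranks 1254 and 1043, pooled rank 1097), at a summit 44 bp upstream, and a start of CG18809 lay at the same distance. COX7B (3L) had 114 and 71.1 (ranks 615 and 1992, pooled rank 1106) at a summit 136 bp upstream, and Sec3, a gene of vesicle tethering, had a start 124 bp away. COX5B (2L) had 54.6 and 97.4 at a summit 256 bp upstream and only 42 bp from a start of IFT52, a gene of ciliary transport. COX5A was near the limit, with a pooled signal value of 98.5. The replicates disagreed on the order of these genes, with COX7B highest in replicate 1, and COX5B and COX6B close together at the top in replicate 4. COX4, COX7A, COX7C and COX8 held no IDR peak, and the highest of them by pooled rank was COX7C at 4946.

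Of the complex I genes, ND-20, which encodes the core subunit next to the quinone site, had the strongest peak at its own start. The summit lay 75 bp upstream (X, 15986883) with 192 in replicate 1 and 87.6 in replicate 4 (ranks 175 and 1264, pooled signal value 279 and rank 375), so that it stood higher in replicate 1. ND-20 was 1 of 3 of 7 core subunit genes with a peak, beside ND-51 for the NADH-binding flavoprotein subunit (pooled signal value 116, with a start of CG13994 nearer) and ND-24 for its iron-sulfur partner (96.0). ND-75, ND-49, ND-30 and ND-23 had none, with best pooled ranks of 8737, 10148, 12178 and 9377. Of the 27 accessory genes not named as copies, 6 held a peak (22.2%), beside 42.9% of the core genes and 26.1% of all genes. The 6 accessory genes were ND-15 (signal value 263), ND-ASHI (164), ND-42 (135), ND-B14 (114), ND-B8 (109) and ND-MWFE (97.4). The strongest summit of each of these 6 genes lay nearer to a start of another gene, which was Polr2E at ND-B14, Secp43 at ND-B8 and TppII at ND-MWFE. ND-AGGG alone of the 34 complex I genes not named as copies had no pooled summit. The strongest complex I gene without an IDR peak was ND-SGDH, followed by ND-B16.6 (85.7, rank 4457).

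The 4 summits counted for ND-15 lay far from the part of the gene that encodes the subunit. Of its 10 transcripts, 3 begin at 2L 114726 and the other 7 at 155089 or 155335, and the coding sequence runs from 155572 to 155947. The strongest summit, at 131906, had 97.6 in replicate 1 and 159 in replicate 4 (ranks 886 and 338, pooled rank 439), lay in the long intron and was 171 bp from a start of Gs1, a glutamine synthetase gene. The summit at 129221 was 24 bp from a start of CG3164. With only the coding span and 2000 bp before it counted, ND-15 held none of them.

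Complexes II and III had few peaks. In complex II, SdhC, for a membrane anchor of succinate dehydrogenase (3R), had a summit 1880 bp upstream with 41.0 in replicate 1 and 93.4 in replicate 4 (ranks 5288 and 1106, pooled rank 1601), and the start of Tctp was closer, at 1482 bp. SdhB, for the iron-sulfur subunit, came next without an IDR peak (40.5 and 49.5 in the replicates, 83.0 pooled, pooled rank 4695). SdhD, for the other membrane anchor, followed at pooled rank 6361 (47.1 and 20.8). In complex III, UQCR-Q, for a small subunit, had its summit 12 bp from its own start (3L 17475061) with 146 in replicate 1 and 67.0 in replicate 4 (ranks 333 and 2216, pooled rank 783). UQCR-C2, for a core protein of the complex, had a summit 15 bp from its start with 71.7 and 31.5 (ranks 1753 and 7938, pooled rank 3215). Both complex III genes were higher in replicate 1. The copy UQCR-11L came next, with 40.8 and 52.9. UQCR-C1, for the other core protein, had no IDR peak (76.8, pooled rank 5370), and UQCR-11 had no pooled summit.

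Genes named as copies of another subunit gene held a summit less often than the other members, in the IDR list and in the pooled list. Of 24 such genes, 2 held an IDR peak (8.33%), beside 23 of the 64 other members (35.9%). In the pooled list 9 of the 24 (37.5%) and 62 of the 64 (96.9%) had a summit, beside 69.1% of all genes. The copies with an IDR peak were COX7AL2 and COX5BL, and the COX5BL summit was that of COX5B, 1887 bp upstream. None of the IDR summits of these copies lay within 500 bp of a start of the copy. In replicate 1 alone 2 copies had a summit among the strongest 3960, and in replicate 4 alone 3. The 15 copies with no pooled summit were ND-20L, ND-24L, ND-49L, ND-51L2, SdhAL, SdhCL, UQCR-14L, COX4L, COX6AL, COX6AL2, COX6CL, COX7AL, ATPsynCF6L, ATPsynGL and ATPsynbetaL. The copies were shorter, with a median length of 744 bp against 1148 bp for the other members, and the part of length in these shares was not tested.

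Many of the promoters with a peak were shared with a neighbour. Of the 25 genes, 19 had their strongest summit within 500 bp of a start of their own, and 13 (52%) had it nearer to a start of another protein-coding gene, beside 36.6% of all genes with a peak. Over all 34 pairs of a member and an IDR summit, which held 33 distinct summits, 58.8% lay within 500 bp of the member's start, beside 54.4% over all genes. Without COX7AL2 and ND-15, none of whose summits lay that near, it was 20 of 25 pairs (80%). No such genes were left out of the share over all genes, so the 80% cannot be set against it. A divergent neighbour, another gene on the opposite strand that starts no more than 1000 bp before the member, was present for 41 members (46.6%, beside 35.2% of all genes). Among the copies it was 4 of 24 (16.7%), and among the other members 37 of 64 (57.8%). Members with such a neighbour held an IDR peak in 15 of 41 cases (36.6%, beside 37.9% of all genes with one). Members without it held a peak in 10 of 47 cases (21.3%, beside 19.6% of all genes without one). With the copies included, the shares of the members were thus near the background in both classes. Among members not named as copies, 15 of 37 with such a neighbour held a peak (40.5%). Without one it was 8 of 27 (29.6%), above the 19.6% of all genes without one.

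For 3 of the 15 genes with both a peak and a divergent neighbour, picked after the values were seen and with no gene list or background share behind the choice, the neighbour is known for a mitochondrial role. The ND-ASHI summit (72.6 in replicate 1, 90.8 in replicate 4) lay 173 bp from a start of Fum1, the fumarase gene of the citrate cycle, 522 bp from start to start. The ND-42 summit (82.0 and 68.9) lay 77 bp from a start of Cchl, which attaches heme to cytochrome c. The stronger ATPsynD summit lay 46 bp from its own start and 95 bp separated that gene from mRpL55, a gene of the mitochondrial ribosome. The other 12 neighbours were Afti, CG3548, SCAR, glo, IFT52, CG33932, Sec3, corolla, CG13994, Secp43, TppII and Tctp. A neighbour of this kind also occurred without an IDR peak, as ND-B16.6 starts 228 bp from the citrate cycle gene kdn. A summit between divergent genes cannot be given to either of them from peak positions.

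**Figure D4:**
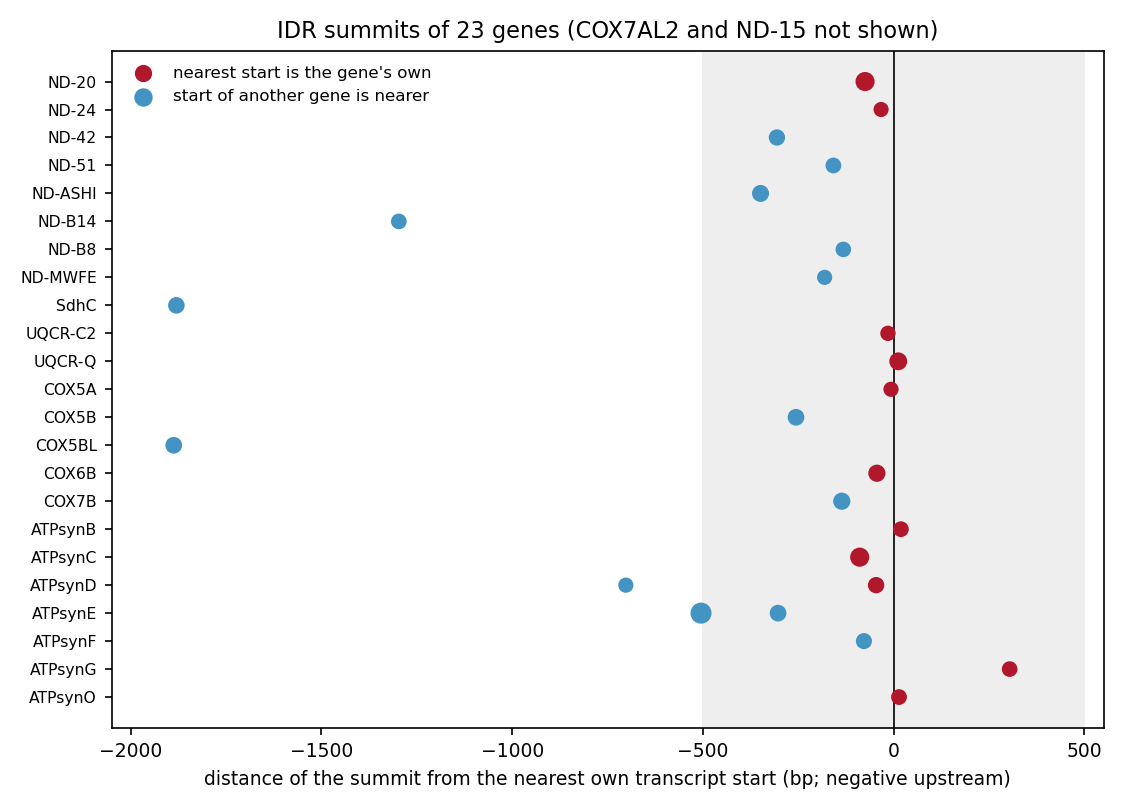
Distance of each IDR summit from the nearest start of the gene it was counted for, in bp, negative upstream, for 23 genes. COX7AL2 and ND-15 were left out. Red points have the gene's own start nearest, blue points another gene's, larger points have higher signal values, and the grey band marks 500 bp. Of 25 pairs 20 lie in the band.

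All 25 genes had their peak listed in both replicates, but not in the same order. The strongest summit of each of the 25 genes had a counterpart within 200 bp in both replicate lists. Among the strongest 3960 peaks of its replicate, the counterpart was found for 23 genes in replicate 1 and 20 in replicate 4, and for 18 genes in both. The median rank was 1708 in replicate 1 and 2101 in replicate 4, and 15 genes ranked higher in replicate 1 and 9 in replicate 4. Matching counts over all genes with a peak are not given here. Whether these counts are particular to the members was thus not tested. The 5 genes below that limit in replicate 4 were ND-MWFE (rank 11565), UQCR-C2, ND-B8 (5721), ND-24 (4532) and ATPsynO (4477). SdhC and ATPsynG (rank 5002) were below it in replicate 1. The IDR list holds the strongest 3960 peaks of both replicates pooled, so agreement between replicates within it is no separate evidence.

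**Figure D5:**
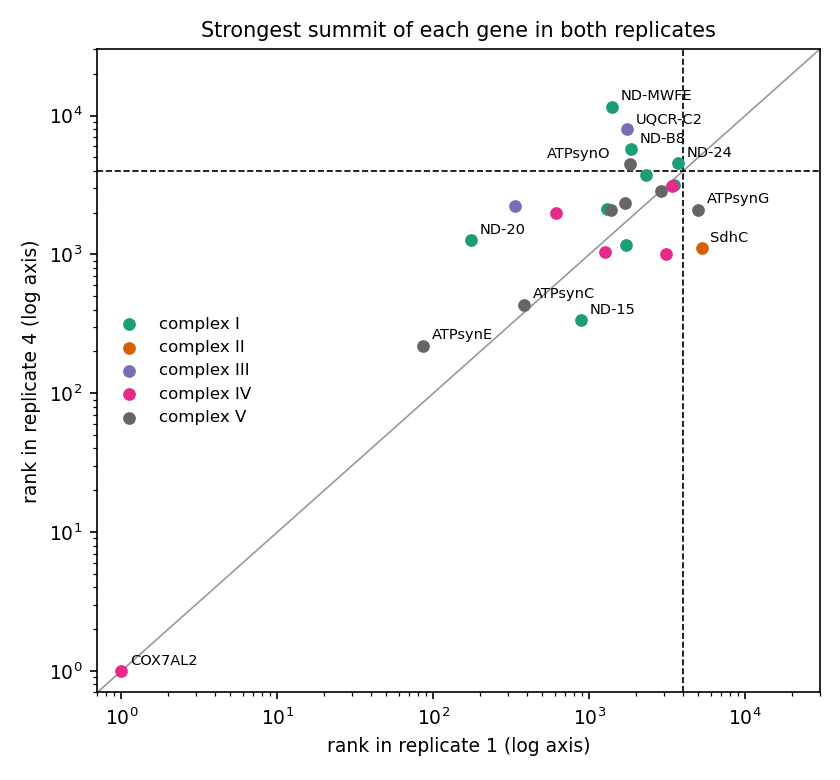
Rank of the strongest IDR summit of each gene in replicate 1 and replicate 4 (both log axes, 1 is strongest), with COX5B and COX5BL as the same point. Dashed lines mark rank 3960 and the grey line equal ranks. COX7AL2 has rank 1 in both, ATPsynE 86 and 220, and ND-MWFE 1404 and 11565.

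Ftz-F1 sites were rare at these summits, and of the exact motifs searched in the members' promoters the site of the promoter factor M1BP was found most often. Near matches to a Ftz-F1 site, with at most 1 mismatch, were in 30 of 88 member promoters (34.1%, beside 36.6% of all genes). The sites listed above lay within 100 bp of 1 of 33 distinct member summits (3.03%), beside 9.65% of all 3960 IDR summits. That summit, at 126132 in the long intron of ND-15, had CAAGGTCA 88 to 95 bp from its centre. None of the 88 members had such a site between 250 bp before and 50 bp after the gene start, beside 1.66% of all protein-coding genes. GGTCACACT, the M1BP site, lay at 3 of the 33 summits (9.09%, beside 3.43% of all IDR summits) and in the promoters of 15 of 88 members (17%, beside 6.05% of all genes). Among members with an IDR peak it was in 7 of 25 promoters (28%), beside 9.74% for all genes with a peak. In the same promoters the DREF site TATCGATA was less frequent than in all genes with a peak, 1 of 25 (4%, beside 13.5%), and so was GAGAGA, 2 of 25 (8%, beside 13.7%). TATCGATA, the DREF site, lay in 9 member promoters (10.2%, beside 9.37%) and at 1 summit, and GAGAGA, bound by GAGA factor, at 5 summits (15.2%, beside 15.7%) and in 6 member promoters (6.82%, beside 12.3%). An element known from nuclear respiratory genes of flies, TTACATAA, TTACGTAA, TTATATAA or TTATGTAA, was in 6 member promoters (6.82%, beside 5.18%). CGCATGCG, the centre of the site of Ewg, the fly relative of the respiratory regulator NRF-1, was in none (beside 0.624% of all genes). All motifs were sought on both strands. The first 5 letters of the M1BP site, GGTCA, are also the last 5 of CAAGGTCA. The absence of a match says only that these letters were not in the window.

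The 201 bp around the summits with a Ftz-F1 or an M1BP site are shown so that these sites can be read in place, plus strand of the same assembly with the summit at the centre. Capitals mark the CAAGGTCA site in the ND-15 intron and the M1BP site, in either orientation, at UQCR-Q, ATPsynC and ATPsynD.
ND-15, chr2L:126032-126232: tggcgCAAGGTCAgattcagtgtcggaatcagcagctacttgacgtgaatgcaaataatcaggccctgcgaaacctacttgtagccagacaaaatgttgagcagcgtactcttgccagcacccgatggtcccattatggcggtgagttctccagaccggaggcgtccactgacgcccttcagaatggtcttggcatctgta
UQCR-Q, chr3L:17474961-17475161: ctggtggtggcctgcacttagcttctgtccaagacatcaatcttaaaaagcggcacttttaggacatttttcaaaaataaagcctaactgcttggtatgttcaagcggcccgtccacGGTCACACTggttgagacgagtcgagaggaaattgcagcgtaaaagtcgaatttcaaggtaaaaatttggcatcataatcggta
ATPsynC, chr3R:31219619-31219819: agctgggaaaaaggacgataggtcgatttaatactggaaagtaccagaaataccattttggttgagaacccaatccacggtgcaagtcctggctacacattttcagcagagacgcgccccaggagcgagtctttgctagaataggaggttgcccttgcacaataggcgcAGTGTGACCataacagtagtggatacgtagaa
ATPsynD, chr3R:19094854-19095054: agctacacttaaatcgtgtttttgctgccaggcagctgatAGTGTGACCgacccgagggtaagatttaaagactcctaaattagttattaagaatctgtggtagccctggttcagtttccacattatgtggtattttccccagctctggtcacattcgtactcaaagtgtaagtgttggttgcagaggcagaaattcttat
The ATPsynE and ND-20 windows, the strongest of complex V and of complex I, held no exact Ftz-F1 site, and that of ATPsynE held GAGAGA on the minus strand. Capitals mark in each the single stretch with at most 1 mismatch to a Ftz-F1 site.
ATPsynE, chr3R:14326342-14326542: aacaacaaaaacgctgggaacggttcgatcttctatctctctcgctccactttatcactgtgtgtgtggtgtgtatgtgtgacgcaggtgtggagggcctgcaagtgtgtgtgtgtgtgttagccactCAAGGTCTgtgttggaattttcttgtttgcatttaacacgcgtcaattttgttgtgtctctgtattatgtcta
ND-20, chrX:15986783-15986983: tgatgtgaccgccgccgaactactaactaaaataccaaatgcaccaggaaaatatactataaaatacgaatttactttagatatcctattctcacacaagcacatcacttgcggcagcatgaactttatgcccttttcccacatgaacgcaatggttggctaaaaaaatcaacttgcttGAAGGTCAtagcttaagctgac
In ATPsynE this stretch lay 28 to 35 bp from the summit and in ND-20 79 to 86 bp from it. The M1BP sites lay 17 to 25 bp from the summit at UQCR-Q, 69 to 77 bp at ATPsynC and 52 to 60 bp at ATPsynD.

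Other genes of the chain and around it, from a list of 43 made for this comparison, held peaks in 27 cases (62.8%), beside 26.1% of all protein-coding genes. The list was drawn up with earlier results of these data known. Its genes were longer (median 2936 bp) than the members and than all protein-coding genes (2166 bp), and the part of length was not tested. In the citrate cycle and pyruvate dehydrogenase, 11 of 14 genes held a peak (78.6%). The strongest were ScsbetaA, a subunit of succinyl-CoA synthetase (signal value 436), muc, the acetyltransferase of pyruvate dehydrogenase (249), and Scsalpha1 (228). The others were Ogdh (209), Idh3b (171), Fum1 (164), mAcon1 (134), Pdhb (134), ScsbetaG (129), Pdha (120) and Idh3g (109), while kdn, Idh3a and Mdh2 held none. The Ogdh summit lay nearer to a start of Cpr73D. Of 7 subunits whose symbols lack the prefixes, 4 held a peak, namely ox of complex III (241), blw (189), levy of complex IV (169) and RFeSP, the Rieske protein of complex III (147). The ox and levy summits lay nearer to starts of Dgkepsilon and wmd.

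Cytochrome c, which carries electrons from complex III to complex IV, had a strong peak at Cyt-c-p (267, summit 61 bp from its start) and a lower one counted for Cyt-c-d (129, with CG31808 nearer). The dehydrogenase genes Gpo1 (178) and Etf-QO (96.2) also held peaks, so that 4 of 5 genes of carriers and feeding enzymes did. Of 5 genes for export of ATP and import of phosphate, 3 held one, Mpcp2 (155) and the adjacent translocase genes sesB and Ant2, which shared a summit (138). Among 7 regulators and mitochondrial DNA factors, srl, the fly relative of the coactivator PGC-1 (236), TFAM, which packages mitochondrial DNA (169), and the nuclear receptor gene ERR (152) held peaks, with CG5412 nearer to the TFAM summit, and ewg, Ets97D, mtTFB2 and PolG1 did not. Of 5 assembly factor genes, CIA30 (196) and Ttc19 (120) held one, with CG7601 and Acn nearer to the summits.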

How the data were processed

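Peak lists from 2 replicates were used. Each deposited list gives every peak a signal score, whose scale neither labels nor headers state, and a summit offset. Per the deposited file listing, the authors derived the thresholded list from both replicate lists plus the pooled one, and the same unnamed file entered the replicate peak lists and the control-normalized signal. The software for alignment, for peak calling and the threshold were not stated in those sources. Here, dm6 summits (1-based) were assigned to protein-coding genes of Ensembl release 115 (BDGP6.54). Sequence was read from the release 6 assembly, which has dm6 coordinates. Replicate counterparts are the nearest summit within 200 bp, and the largest shift at a member summit was 169 bp. The assignment was tested on simulated summits. Python 3.11.15, NumPy 2.4.6 and pandas 2.3.3 were used. Genes whose symbols end in L, or L and a digit, were counted as copies, except ND-MNLL.

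The text names members with an IDR summit, per complex the strongest 3 and the strongest without one, members with no pooled summit, and listed pathway genes with a peak. Other genes named for their role, and the near-start neighbours, were added after their values were seen. Members, lists and motifs were chosen with earlier results of these data known. No p-value was computed. Depth is unknown from peak lists. Alternatives changed the assignment, the list, the windows, the site and the replicates used.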

Additional observations from a re-analysis of the deposited data

How the results depend on the processing

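No paired analysis was possible because there is 1 group. Beside the 25 genes in the main count, 9 members (10.2%) held a peak with the gene body alone, beside 12.9% of all genes, and 12 (13.6%) by nearest start, beside 19.3%, both below all genes where the main share was above. With the strongest 1980 IDR peaks it was 14 (15.9%, beside 15.2%), and with all pooled peaks 71 (80.7%, beside 69.1%). Complexes I, II, IV and V held 2, 0, 2 and 3 by the body alone. By nearest start complexes I, II and IV held 2, 0 and 3. With the strongest 1980 peaks complexes I, III, IV and V held 4, 1, 5 and 3, so that complex IV (31.2%) passed complex V (20%). With all pooled peaks complexes I to V held 35, 6, 7, 11 and 12. Copies and other members came to 1 and 8 by the body alone, 1 and 11 by nearest start, and 9 and 62 in the pooled list, and the other members to 12 in the strongest 1980. Within 500 bp of a start, complex II and the copies held 0. With replicate 1 or replicate 4 left out, complex II held between 1 and 2 genes.

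The median signal value of members with a peak was 0.973 times that of all genes with one, and 0.883 to 0.993 with a replicate left out. The share of member summits within 500 bp of the own start was 58.8%. It was 52.9% to 55.6% with a replicate left out, 55.6% with the strongest 1980 peaks, and 44.1% within 200 bp. Ftz-F1 sites lay at 3.03% of member summits. The share was 0% in the strongest 1980 peaks, within 50 bp of a summit and with C or T required before the site, and 0% to 2.86% with a replicate left out. The rank of the COX7AL2 summit went from 1 to 175 with the coding span, an alternative chosen after seeing the data, and was 1 with either replicate left out. In that alternative 23 members (26.1%) held a peak, beside 22.1% of all genes. The cause of these changes was not tested, apart from the fewer or more summits each setting counts by construction. The dm3 lists were not run for genes, since no dm3 annotation was used. Depth is unknown, so a gene without a listed peak is only that.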

Other observations

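The mitochondrial chromosome, which encodes further subunits of complexes I, III, IV and V, appeared in the dm3 lists and not in the dm6 lists used above. The dm3 IDR list held 2 mitochondrial peaks among 4902, with signal values of 213 (rank 733) and 93.7 (rank 3798). The best mitochondrial rank was 4324 in replicate 1 and 268 in replicate 4, where 2 and 5 peaks were listed. The strongest dm3 peak of each list lay on 2L, with a signal value of 3557 in the pooled list.

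With the coding span in place of the gene, ND-15 and COX6B were the members that lost their peaks, and no member gained one.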
